A study of Homo sapiens with 8 samples.

Results

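The genes described here are the receptors *EGFR*, *ERBB2* and *ERBB3*, the ligands *AREG*, *EREG*, *HBEGF*, *TGFA*, *BTC* and *NRG4*, and the feedback inhibitor *ERRFI1*. They were chosen by name as the EGFR family and its regulators, and they are 10 of the 57815 gene identifiers measured. The study compared RNA of lung adenocarcinoma cell lines with intact KEAP1 and NRF2 after exposure to DEM, an electrophile that inhibits KEAP1, or to its solvent. ABC1 and HCC4006, each represented by 1 established line, were both kept in low glucose DMEM with serum, and neither carries a mutation of *KEAP1* or *NRF2*. HCC4006 is known as an *EGFR*-mutant line, and the deposited values sum the alleles of a gene. The 4 groups were ABC1 with the vehicle DMSO, ABC1 with 100 μM DEM, HCC4006 with the vehicle DMSO and HCC4006 with 100 μM DEM, all collected at 16 h. Each group held 2 libraries, described by the study as biological duplicates and numbered 0 and 1 below.

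ERBB receptors are tyrosine kinases of the cell surface that pair with each other when a ligand binds, and in lung epithelium they drive proliferation and survival through RAS, ERK, PI3K and AKT. *ERBB2* has no ligand of its own and *ERBB3* has little kinase activity, so both act mainly as partners, whereas *EGFR* binds TGFα, amphiregulin, HB-EGF, betacellulin and epiregulin. Neuregulin-4 is a ligand of ERBB4, and ERRFI1, also called MIG6, is an induced cytoplasmic protein that binds the EGFR kinase domain and inhibits it.

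Levels are given as FPKM, mapped fragments scaled to transcript length and to the total of the library, which allows a comparison between genes. Differences were tested by limma on log2(FPKM + 1) with genes under a mean of 1 FPKM in the libraries compared left out, and calls were made at an adjusted p under 0.05. A log2 fold change on this scale understates the change of a gene with a low level. The smallest p of an exact two-sided permutation test is 0.333 in this design of duplicates, and limma gave every p printed here. In RNA of whole cultures, fewer cells with a transcript and less of it per cell cannot be told apart. The largest FPKM total of a library was 1.18 times the smallest, and duplicates correlated across genes with r between 0.977 and 0.988. Read totals per library were not used here, but base means, which are depth-scaled counts averaged by the authors over a line, summed to 13786938 in ABC1 and 13957320 in HCC4006. All 5 genes taken as a check of the DEM exposure (*NQO1*, *GCLM*, *TXNRD1*, *SRXN1* and *HMOX1*) rose in both lines. All 6 epithelial markers were at 1 FPKM or more in each group, with sums between 3443 and 5825 FPKM. The lung lineage factor *NKX2-1* lay between 0.502 and 0.763 FPKM in ABC1 and between 42.4 and 47.1 FPKM in HCC4006, so this marker of lung adenocarcinoma was nearly absent from ABC1. Of the 4 markers in that list, 0 reached 1 FPKM in an ABC1 group and 2 did in HCC4006.

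**Figure D1:**
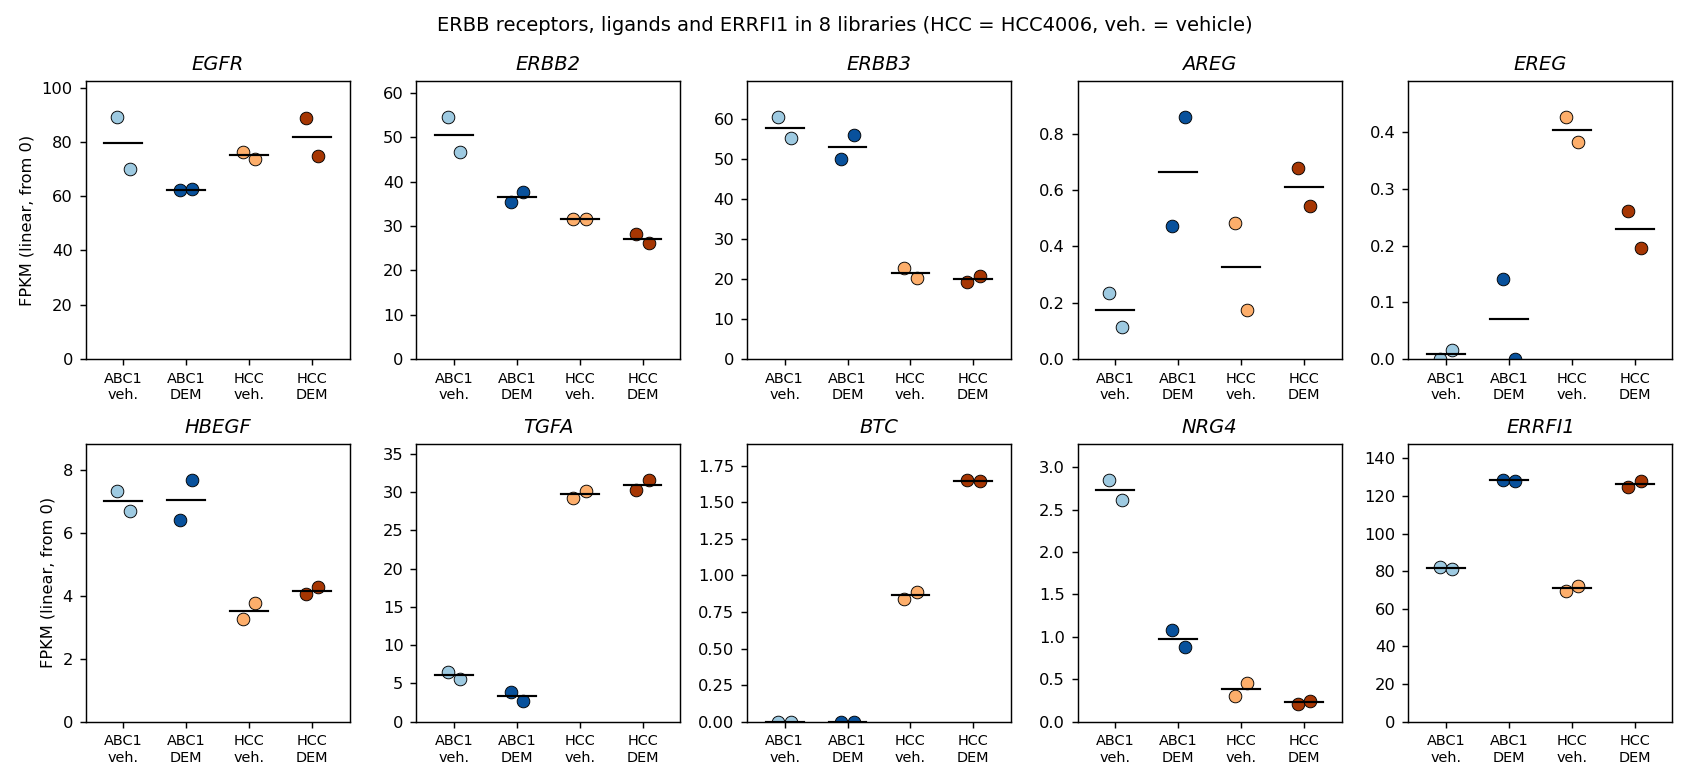
Level of each of the 10 genes in FPKM on a linear axis from 0, with 1 point for each library and a bar for the mean of 2 libraries, by line (HCC, HCC4006) and treatment (veh., vehicle). *ERRFI1* stood at 128 FPKM in both DEM libraries of ABC1 against 82.1 and 81.1 with vehicle, *TGFA* was higher in HCC4006, and *BTC* was listed at 0 in ABC1.

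With vehicle, *ERRFI1* and *EGFR* were the most abundant of the 10 transcripts in both lines. In ABC1 they were followed by *ERBB3* and *ERBB2*, and the ligands stood far below in the order *HBEGF*, *TGFA* and *NRG4*. The levels of *ERRFI1* and *EGFR* overlapped between the ABC1 vehicle libraries. In HCC4006 the order was *EGFR*, *ERRFI1*, *ERBB2*, *TGFA*, *ERBB3* and *HBEGF*, and *BTC*, *EREG*, *NRG4* and *AREG* were below 1 FPKM. The last 3 of these overlapped between the vehicle libraries. *EGFR* was at or above 89.5% of the genes averaging 1 FPKM or more in ABC1 with vehicle and 88.9% in HCC4006 with vehicle.

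Promoters are shown for *ERRFI1* and *NRG4*. Among the members tested in ABC1, they had the highest and the lowest log2 fold change of FPKM + 1 with DEM, and neither was called. The window of each runs from 250 bases before to 50 bases after the RefSeq start on GRCh38.p14, and capitals mark the core of the antioxidant response element, TGACNNNGC, which NRF2 with a small MAF protein binds. Both genes lie on the minus strand, the *ERRFI1* window at chr1:8026260-8026559 and the *NRG4* window at chr15:76012375-76012674.
ERRFI1: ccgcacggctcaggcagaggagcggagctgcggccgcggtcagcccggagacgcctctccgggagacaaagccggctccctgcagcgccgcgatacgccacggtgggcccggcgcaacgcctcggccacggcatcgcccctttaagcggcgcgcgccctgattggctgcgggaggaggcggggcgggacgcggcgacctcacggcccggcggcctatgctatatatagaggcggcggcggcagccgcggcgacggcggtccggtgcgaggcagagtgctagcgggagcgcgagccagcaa
NRG4: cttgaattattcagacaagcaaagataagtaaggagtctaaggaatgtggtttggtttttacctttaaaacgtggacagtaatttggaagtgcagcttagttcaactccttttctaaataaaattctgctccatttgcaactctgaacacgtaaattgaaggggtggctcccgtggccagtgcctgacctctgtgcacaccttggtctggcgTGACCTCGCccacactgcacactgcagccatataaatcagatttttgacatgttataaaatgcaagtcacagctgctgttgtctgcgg
*NRG4* held 1 match, TGACCTCGC, whose first base is at position -38 from the RefSeq start, and *ERRFI1* held none. Gene intervals below are on GRCh37, and where this start lies within the measured interval of *NRG4* was not determined. The core, searched on both strands, was found in 13.3% of 35116 RefSeq promoters of this length. Of the 10 members, 9 were in the promoter table, with 11 starts, and *NRG4* was the only one with the core. The AP-1 element TGANTCA, searched in the same way and found in 7.71% of promoters, was present at positions -232 (TGAGTCA) and -136 (TGACTCA) of 1 of the 2 starts of *EGFR* and at -222 (TGATTCA) of *ERBB2*. A match is a run of letters in the window and was not tested as a binding site.

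The receptor transcripts differed between the lines in *ERBB3* and *ERBB2*, whereas the vehicle levels of *EGFR* overlapped. *EGFR* (ENSG00000146648.11, GRCh37 chr7:55086710-55279321, plus strand) was at 89.1 and 70.0 FPKM in the ABC1 vehicle libraries and at 76.3 and 73.7 FPKM in those of HCC4006. The HCC4006 values lay inside the range of ABC1. The log2 difference of HCC4006 from ABC1 was -0.07 (SE 0.14, 95% CI -0.42 to 0.27, limma, Benjamini-Hochberg adjusted p = 0.649). This value rested on the wide ABC1 pair, since it was -0.24 without ABC1 vehicle 1 (adjusted p = 0.0476 by limma) and 0.10 without ABC1 vehicle 0.

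With DEM, *EGFR* was at 62.2 and 62.7 FPKM in ABC1 and at 88.8 and 75.0 FPKM in HCC4006. Both HCC4006 libraries were above both ABC1 libraries. The log2 difference of HCC4006 from ABC1 was 0.38 (SE 0.13, limma, Benjamini-Hochberg adjusted p = 0.0430), a call that was lost when any 1 library was left out (adjusted p between 0.0742 and 0.199). Within ABC1 the vehicle mean was 79.6 ± 13.5 FPKM (SD, n = 2) against 62.4 ± 0.354 FPKM with DEM, and both values with DEM were below both with vehicle. That log2 fold change was -0.34 (SE 0.15, adjusted p = 0.269 by limma). In HCC4006 the mean was 75.0 ± 1.86 FPKM with vehicle and 81.9 ± 9.81 FPKM with DEM, and 1 DEM library lay within the vehicle range. The log2 fold change was 0.12 (SE 0.10, adjusted p = 0.408 by limma), and it came to -0.00065 without HCC4006 DEM 0.

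*ERBB2* (ENSG00000141736.9, chr17:37844167-37886679, plus strand), the partner of the other receptors, was at 54.5 and 46.7 FPKM with vehicle and at 35.4 and 37.5 FPKM with DEM in ABC1. In HCC4006 it was at 31.5 FPKM in both vehicle libraries and at 28.2 and 26.1 FPKM with DEM. In either line the DEM pair was below the vehicle pair, and HCC4006 was below ABC1 under each treatment. The mean in ABC1 was 1.61 times that in HCC4006 with vehicle (log2 difference of HCC4006 from ABC1 -0.66, SE 0.11, limma, Benjamini-Hochberg adjusted p = 0.00358). This call was lost without either HCC4006 vehicle library (adjusted p = 0.0689 and 0.0687 by limma). With DEM the ratio was 1.34 (log2 difference -0.41, SE 0.11, adjusted p = 0.0224 by limma), a call that was lost with scaling to *GAPDH* (-0.24, adjusted p = 0.179) and, by limma, without ABC1 DEM 1 (adjusted p = 0.0508), HCC4006 DEM 0 (0.0962) or HCC4006 DEM 1 (0.140). The log2 fold change with DEM was -0.46 in ABC1 (SE 0.13, 95% CI -0.79 to -0.13, adjusted p = 0.140 by limma) and, for HCC4006, -0.21 (SE 0.08, 95% CI -0.41 to -0.01, adjusted p = 0.128 by limma). *ERBB2* overlaps *MIEN1* on the opposite strand, which was at 18.0 to 34.0 FPKM, and whether the authors' counting used strand is not given in the sources used here.

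*ERBB3* (ENSG00000065361.10, chr12:56470583-56497289, plus strand), the preferred partner of ERBB2 and a docking protein for PI3K, was at 60.5 and 55.3 FPKM in the ABC1 vehicle libraries and at 22.8 and 20.4 FPKM in those of HCC4006. With DEM it was at 50.02 and 56.2 FPKM in ABC1 and at 19.2 and 20.7 FPKM in HCC4006. The lines were well apart, and the treatments overlapped within each line. *ERBB3* was 2.68 times higher in ABC1 with vehicle (log2 difference of HCC4006 from ABC1 -1.38, SE 0.11, limma, Benjamini-Hochberg adjusted p = 2.33e-04) and 2.66 times higher with DEM (-1.37, SE 0.12, adjusted p = 3.85e-04 by limma). Within a line, the log2 fold change with DEM was -0.12 in ABC1 (95% CI -0.44 to 0.20, adjusted p = 0.616 by limma). It was -0.11 in HCC4006 (95% CI -0.35 to 0.13, adjusted p = 0.465 by limma).

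The make-up of the receptor pool followed these levels. *EGFR* made up 40.1% to 43.6% of the summed FPKM of the 3 receptors in the ABC1 libraries and 58.4% to 65.2% in the HCC4006 libraries. The share of *ERBB3* was 29.7% to 35.9% in ABC1 and 14.1% to 17.5% in HCC4006. Neither share overlapped between the lines, while that of *ERBB2* did, with 24.0% to 27.1% in ABC1 and 20.7% to 25.1% in HCC4006.

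**Figure D2:**
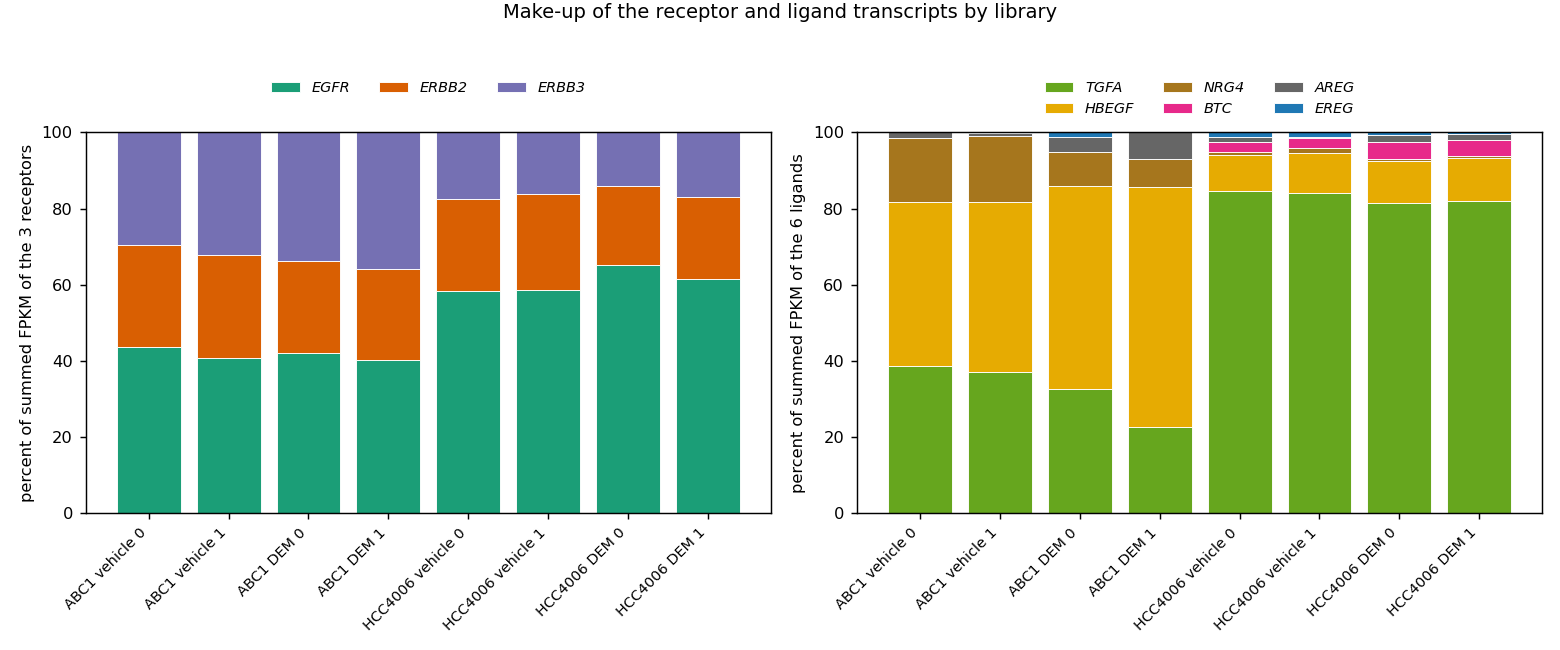
Share of each gene, in percent, in the summed FPKM of the 3 receptors (left) and of the 6 ligands (right) in each of the 8 libraries. *NRG1*, *EPGN* and the other ERBB ligands that are not members are left out of the ligand sum. *TGFA* made up 81.5% to 84.6% of the ligand sum in HCC4006 and 22.6% to 38.5% in ABC1, where *HBEGF* and *NRG4* took larger shares.

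Of the 6 ligands, *TGFA* was the most abundant in HCC4006, and all but *AREG* were apart between the lines under both treatments. Among all genes tested, 85.1% did not overlap between the lines with vehicle and 82.5% with DEM. *TGFA* (ENSG00000163235.11, chr2:70674416-70781325, minus strand), which encodes TGFα, was at 6.52 and 5.58 FPKM in the ABC1 vehicle libraries and at 29.2 and 30.2 FPKM in those of HCC4006. With DEM it was at 3.91 and 2.75 FPKM in ABC1 and at 30.2 and 31.6 FPKM in HCC4006. Each HCC4006 library was above each ABC1 library, and within ABC1 the DEM pair was below the vehicle pair. *TGFA* was 4.91 times higher in HCC4006 with vehicle (log2 difference 2.13, SE 0.11, limma, Benjamini-Hochberg adjusted p = 7.39e-05) and 9.27 times higher with DEM (2.89, SE 0.17, adjusted p = 9.95e-05 by limma). In ABC1 the mean with DEM was 0.551 times that with vehicle, a log2 fold change of -0.71 (SE 0.20, 95% CI -1.20 to -0.23, limma, Benjamini-Hochberg adjusted p = 0.126). In HCC4006 the log2 fold change was 0.06 (SE 0.08, 95% CI -0.14 to 0.25, adjusted p = 0.647 by limma). The difference of these fold changes, HCC4006 minus ABC1, was 0.77 (SE 0.21, 95% CI 0.29 to 1.25), which was short of the threshold (adjusted p = 0.154 by limma).

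*HBEGF* (ENSG00000113070.6, chr5:139712428-139726188, minus strand), which encodes the heparin-binding ligand, was at 7.32 and 6.70 FPKM with vehicle and at 6.41 and 7.67 FPKM with DEM in ABC1. In HCC4006 it was at 3.27 and 3.75 FPKM with vehicle and at 4.05 and 4.27 FPKM with DEM. The ABC1 treatments overlapped, and every HCC4006 library was below every ABC1 library. *HBEGF* was 1.99 times higher in ABC1 with vehicle (log2 difference of HCC4006 from ABC1 -0.83, SE 0.13, limma, Benjamini-Hochberg adjusted p = 0.00268) and 1.69 times higher with DEM (-0.64, SE 0.14, adjusted p = 0.0118 by limma). The call with DEM was lost without HCC4006 DEM 0 (adjusted p = 0.118 by limma) or HCC4006 DEM 1 (0.1002). The log2 fold change with DEM was 0.0023 in ABC1 (95% CI -0.38 to 0.38, adjusted p = 0.994 by limma). It was 0.19 in HCC4006 (95% CI -0.14 to 0.53, adjusted p = 0.349 by limma).

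*NRG4* (ENSG00000169752.12, chr15:76228310-76352136, minus strand), whose promoter is shown above, was at 2.85 and 2.61 FPKM with vehicle and at 1.08 and 0.877 FPKM with DEM in ABC1. In HCC4006 it was at 0.304 and 0.457 FPKM with vehicle and at 0.212 and 0.250 FPKM with DEM. In both lines each DEM library was below each vehicle library. The mean with DEM in ABC1 was 0.359 times that with vehicle, a log2 fold change of -0.91 (SE 0.20, 95% CI -1.41 to -0.42, limma, Benjamini-Hochberg adjusted p = 0.0905). With vehicle, *NRG4* was 7.18 times higher in ABC1 than in HCC4006 (log2 difference of HCC4006 from ABC1 -1.44, SE 0.14, adjusted p = 6.0e-04 by limma). *NRG4* passed the minimum within ABC1 only through its vehicle level and between the lines only through its ABC1 level, so it had to differ in both and these values are a description. *NRG4* was below the minimum within HCC4006 and between the DEM libraries. *NRG4* overlaps *FBXO22* on the opposite strand, which was at 14.4 to 18.1 FPKM. The base mean of *NRG4* in the authors' deposited tables was 24.9 in ABC1 and 0.485 in HCC4006. A base mean need not follow the FPKM, since *CD68* had a base mean of 5.56 in HCC4006 at 102 and 91.2 FPKM with vehicle. The number of reads behind the HCC4006 level of *NRG4* is therefore not known.

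*BTC* (ENSG00000174808.7, chr4:75669969-75719733, minus strand), which encodes betacellulin, was listed at 0 in all 4 ABC1 libraries, and its base mean there was 0. In HCC4006 it was at 0.841 and 0.888 FPKM with vehicle and at 1.65 and 1.64 FPKM with DEM. The duplicates were close and the treatments did not overlap. The mean with DEM was 1.91 times that with vehicle, but the log2 fold change of 0.51 (SE 0.17, 95% CI 0.08 to 0.93) was short of the threshold (limma, Benjamini-Hochberg adjusted p = 0.0919). It passed only without the mean-variance trend (adjusted p = 0.0310 by limma) and in a model of all 8 libraries (0.0302). With 1 library left out, the log2 fold change lay between 0.49 and 0.52. *BTC* passed the minimum within HCC4006 through its DEM level, so it is no independent sign of a change.

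*EREG* and *AREG*, neighbours of *BTC* on chromosome 4, were below the minimum in every comparison. *EREG* (ENSG00000124882.3, chr4:75230862-75254466, plus strand), which encodes epiregulin, was at 0, 0.0160, 0.142 and 0 FPKM in ABC1, vehicle before DEM, and at 0.427, 0.383, 0.262 and 0.196 FPKM in HCC4006. Each HCC4006 library was above each ABC1 library. The base mean, which need not follow the FPKM, was 21.9 in HCC4006 and 0.738 in ABC1. *AREG* (ENSG00000109321.6, chr4:75310853-75320722, plus strand), which encodes amphiregulin, was at 0.236, 0.115, 0.471 and 0.859 FPKM in ABC1 and at 0.484, 0.173, 0.680 and 0.544 FPKM in HCC4006 in the same order. Both DEM libraries were above both vehicle libraries in each line, with base means of only 2.26 and 4.48. With no minimum the log2 fold change was 0.49 in ABC1 (limma, Benjamini-Hochberg adjusted p = 0.398), against 0.29 in HCC4006 (adjusted p = 0.503 by limma). The annotation lists *AREGB* (chr4:75480629-75490486), at 0.203 FPKM or less in each library, and 1075 of the 1155 80-base windows of the *AREG* transcript (93.1%) also occur in that of *AREGB*. Reads of these copies could be split or dropped, so the level of *AREG* is uncertain in both lines.

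The pools of the 6 member ligands differed accordingly. The FPKM of these 6 ligands summed to 12.02 to 16.9 in the ABC1 libraries and to 34.6 to 38.5 in those of HCC4006. Other ERBB ligands, described below, are left out of the sum. Of these, *NRG1* was at 8.27 to 17.0 FPKM in HCC4006 and at practically 0 in ABC1. *EPGN* was at 1.36 to 1.78 FPKM in ABC1 and at 0 in HCC4006. Within the sum of the 6, *HBEGF* made up 43.2% to 63.1% in ABC1 and 9.48% to 11.1% in HCC4006. *NRG4* took 16.8% and 17.4% in the ABC1 vehicle libraries and 9.02% and 7.21% in the ABC1 DEM libraries.

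**Figure D3:**
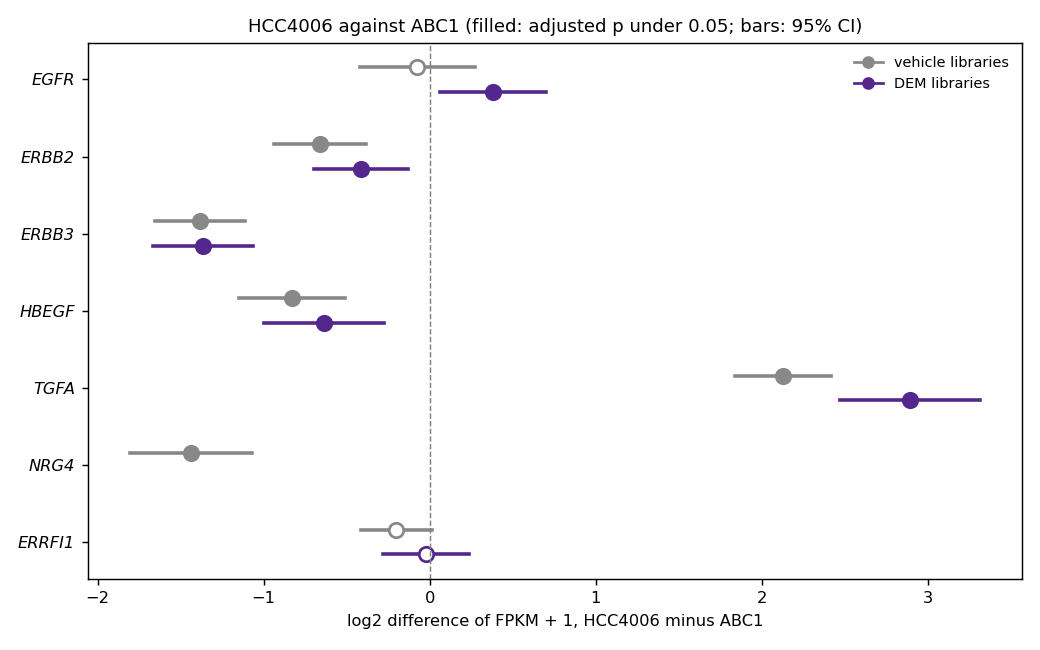
Difference of HCC4006 from ABC1 in log2(FPKM + 1) for the members tested, in vehicle and in DEM libraries (points), with 95% confidence intervals (bars) and filled points where the adjusted p was under 0.05 by limma. *TGFA* was at 2.13 and 2.89, and *ERBB3* at -1.38 and -1.37.

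Between the vehicle libraries, 5 of the 7 members tested were called (limma, Benjamini-Hochberg), *TGFA* as higher in HCC4006 and *ERBB2*, *ERBB3*, *HBEGF* and *NRG4* as lower. *NRG4* passed the minimum there only through its ABC1 level, so it had to differ. Of all 13747 genes tested, 67.7% were called, 37.3% as higher and 30.4% as lower, so a share of this size was near the background. Between the DEM libraries, 5 of 6 were called, *EGFR* and *TGFA* as higher and *ERBB2*, *ERBB3* and *HBEGF* as lower, where 63.6% of 13555 genes were called, 34.8% as higher and 28.8% as lower. The median log2 difference of the members tested was -0.66 with vehicle, where *NRG4* was included, and -0.22 with DEM, where it was not. That of all genes tested was 0.07 and 0.06. With scaling to *GAPDH* the median of all genes moved to 0.22 between the DEM libraries. Of the 5 leukocyte markers, 1 reached 1 FPKM, *CD68*, which encodes a lysosomal protein, and the list summed to 1.75 to 3.18 FPKM in the ABC1 libraries and to 89.8 to 103 FPKM in those of HCC4006. The defining markers *PTPRC*, *CD3E* and *MS4A1* were at 0.192 FPKM or less in each library.

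*ERRFI1*, the feedback inhibitor, was the one member called with DEM, in HCC4006. *ERRFI1* (ENSG00000116285.8, chr1:8064464-8086369, minus strand) was at 82.1 and 81.1 FPKM with vehicle and at 128 FPKM in both libraries with DEM in ABC1. In HCC4006 it was at 69.7 and 72.1 FPKM with vehicle and at 125 and 128 FPKM with DEM. The duplicates lay close together and the treatments were far apart in both lines. In HCC4006 *ERRFI1* rose 1.78 times, from 70.9 ± 1.70 FPKM (SD, n = 2) to 126 ± 2.24 FPKM. On the log2 scale this was 0.82 (SE 0.07, 95% CI 0.66 to 0.98, limma, Benjamini-Hochberg adjusted p = 0.00202), and the call was kept in each alternative computed (adjusted p between 0.00176 and 0.0423). In ABC1 the mean with DEM was 1.57 times that with vehicle, and the log2 fold change of 0.65 (SE 0.12, 95% CI 0.36 to 0.93) was short of the threshold (adjusted p = 0.0666 by limma). It passed with median of ratios scaling (adjusted p = 0.0444 by limma) and in a model of all 8 libraries (0.00475). Apart from the replicate block described at the end, the other alternatives left it short of the threshold. With 1 library left out, the log2 fold change in ABC1 lay between 0.64 and 0.66. The fold changes of the lines differed by 0.18 (95% CI -0.08 to 0.44, adjusted p = 0.534 by limma).

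Between the lines, *ERRFI1* in HCC4006 differed from ABC1 by -0.20 on the log2 scale with vehicle (limma, Benjamini-Hochberg adjusted p = 0.0832) and by -0.02 with DEM (95% CI -0.28 to 0.23, adjusted p = 0.848 by limma). These comparisons share libraries with those of DEM against vehicle. Per unit of *EGFR* transcript, *ERRFI1* stood at 0.922 and 1.16 with vehicle and at 2.07 and 2.04 with DEM in ABC1, and at 0.913 and 0.978 with vehicle and at 1.40 and 1.70 with DEM in HCC4006. In each line the ratio was higher in both DEM libraries. With DEM, *ERRFI1* was at or above 93.5% of the genes averaging 1 FPKM or more in ABC1 and 94.0% in HCC4006, against 89.7% and 88.1% with vehicle.

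**Figure D4:**
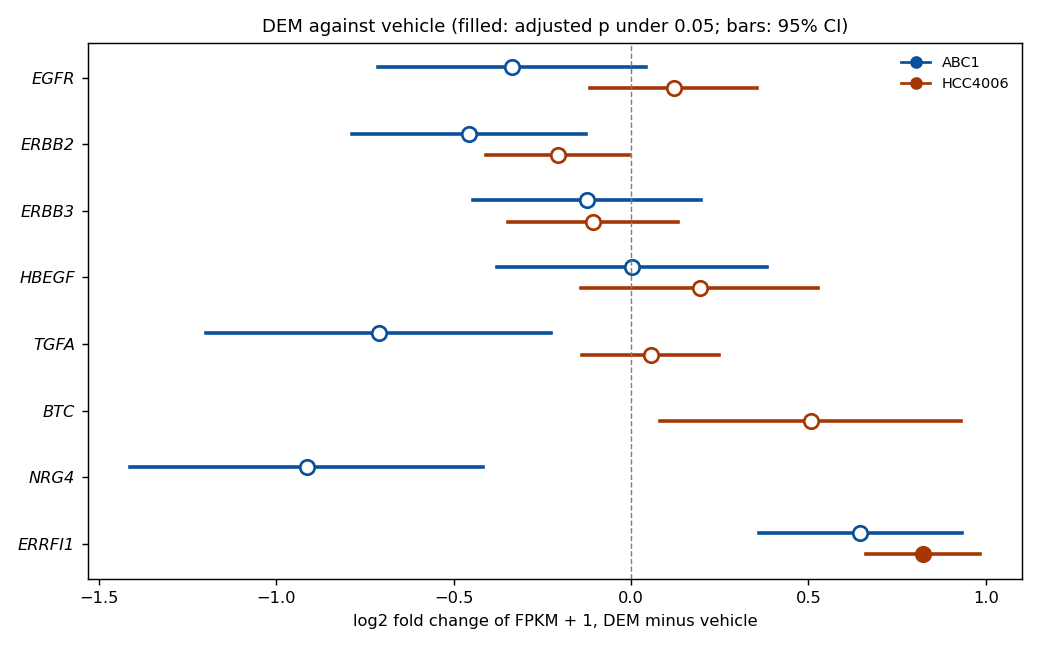
Log2 fold change of FPKM + 1 with DEM against vehicle for the members tested in ABC1 and in HCC4006 (points), with 95% confidence intervals (bars) and filled points where the adjusted p was under 0.05 by limma. The only filled point is *ERRFI1* in HCC4006 at 0.82, and *NRG4* in ABC1 has the lowest value at -0.91.

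With DEM in ABC1, 0 of the 7 members tested were called, where 1.2% of 12635 genes were called, 0.768% as higher and 0.435% as lower, and 2771 genes had an unadjusted p under 0.05 by limma. Of these 7 members, *ERBB2*, *TGFA*, *NRG4* and *ERRFI1* had an unadjusted p under 0.05 (0.0151, 0.0119, 0.00431 and 0.00159 by limma), of which *NRG4* had entered the test only through its vehicle level. The same 4, with the same limit for *NRG4*, were called in the model of all 8 libraries, which called 1567 of 12635 genes in ABC1. In HCC4006, 1 of 7 was called, where 19.1% of 13542 genes were called, 8.45% as higher and 10.7% as lower. The median log2 fold change of the members was -0.34 in ABC1 and 0.12 in HCC4006, and that of all genes tested was -0.02 and -0.03. Of the 7 members tested in ABC1, *ERRFI1* had the DEM pair wholly above the vehicle pair, and *ERBB3* and *HBEGF* overlapped. *EGFR*, *ERBB2*, *TGFA* and *NRG4* had it wholly below. Of the 7 tested in HCC4006, *HBEGF*, *TGFA*, *BTC* and *ERRFI1* had it wholly above, *ERBB2* wholly below, and *EGFR* and *ERBB3* overlapped. *NRG4* in ABC1 and *BTC* in HCC4006 had passed the minimum through 1 treatment only. Among all genes tested, 53.7% in ABC1 and 64.6% in HCC4006 did not overlap in either direction. The summed level of the 6 epithelial markers was 4974 to 5825 FPKM with vehicle and 3666 to 4085 FPKM with DEM in ABC1, and 4393 to 4578 FPKM and 3443 to 3487 FPKM in HCC4006. In HCC4006 3 of them, the keratins *KRT7*, *KRT8* and *KRT18*, fell by limma. The mean of *EPCAM* with DEM was 0.997 times that with vehicle in ABC1 and 1.04 times in HCC4006. For *CDH1* these ratios were 1.003 and 0.907, and for *KRT19* 0.774 and 0.930. The part of these markers in the member values was not tested. The fold changes of the lines were compared directly for 7 members, of which 0 were called by limma, where 0.636% of 13682 genes were called and 2068 had an unadjusted p under 0.05. *EGFR* had the log2 difference of 0.46 (95% CI 0.01 to 0.90, adjusted p = 0.318 by limma). *NRG4*, among these 7, entered only through its ABC1 level, and its difference mainly restates the ABC1 values.

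The remaining ERBB receptor and ligands were low in at least 1 of the lines. *NRG1*, which encodes neuregulin-1, a ligand of ERBB3 and ERBB4, was at practically 0 in ABC1. In HCC4006 it was at 8.27 and 8.65 FPKM with vehicle and at 17.0 and 13.9 FPKM with DEM, and it rose there by 0.80 on the log2 scale (SE 0.12, limma, Benjamini-Hochberg adjusted p = 0.0119). Its level with vehicle was thus above that of *HBEGF* and below that of *TGFA* in the same line. *EPGN*, which encodes epigen, showed the opposite distribution, with 1.36 to 1.78 FPKM in ABC1 and 0 in all 4 HCC4006 libraries. *ERBB4*, the receptor of *NRG4*, lay between 0.314 and 1.19 FPKM in ABC1 and was below 0.1 FPKM in HCC4006. *EGF* lay between 0.106 and 1.32 FPKM over all libraries, *NRG3* between 0.400 and 0.936 FPKM in ABC1 with practically none in HCC4006, and *NRG2* was at 0.251 FPKM or less.

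Of 69 other genes of the pathway in 6 lists, 66 were tested with DEM in ABC1 and 0 were called. In HCC4006, 67 were tested and 12 were called (limma, Benjamini-Hochberg), 9 as higher and 3 as lower. That share, 17.9%, was near the background of 19.1%. Among the regulators of ligand release, *ADAM17*, the protease that sheds TGFα and HB-EGF, rose by 0.78 on the log2 scale and *RHBDF1*, which guides ADAM17 to the surface, by 0.46. Of the genes that take part in receptor downregulation, *CBLB*, a ubiquitin ligase of activated EGFR, went from 6.40 and 6.74 FPKM to 12.8 and 13.7 FPKM (log2 fold change 0.91, SE 0.10, adjusted p = 0.00544 by limma), and *CBL* rose by 0.51 and *SH3KBP1* by 0.33. In ABC1, *CBLB* was at 3.46 and 4.003 FPKM with vehicle and at 9.23 and 7.73 FPKM with DEM, a log2 fold change of 1.001 short of the threshold (adjusted p = 0.0600 by limma).

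Receptor adaptors called in HCC4006 were *GAB2*, *SOS1* and *SOS2* as higher and *PLCG1* as lower. *GAB2*, a docking protein that couples receptors to PI3K and SHP2, was at 17.0 and 16.5 FPKM with vehicle and at 31.96 and 30.5 FPKM with DEM (log2 fold change 0.86, SE 0.08, limma, Benjamini-Hochberg adjusted p = 0.00345). In ABC1 it was at 33.6 and 37.1 FPKM with vehicle and at 32.1 and 34.8 FPKM with DEM, and the fold changes of the lines differed by 0.94 (adjusted p = 0.0385 by limma). The RAF kinases went in opposite directions in HCC4006, *BRAF* by 0.44 and *ARAF* by -0.57. In ABC1 they came to 0.29 and -0.58, short of the threshold (adjusted p = 0.285 and 0.114 by limma). In the list of other receptor tyrosine kinases, *KIT*, the receptor of stem cell factor, fell in HCC4006 from 3.79 and 3.85 FPKM to 0.0684 and 0.264 FPKM (log2 fold change -2.05, SE 0.18, adjusted p = 0.00275 by limma). *KIT* passed the minimum in HCC4006 through its vehicle level, and in ABC1 it was at 0.0259 FPKM or less. Of the 68 pathway genes tested for a difference between the fold changes of the lines, *GAB2* and *KIT* were called. That share was 2.94%, where 0.636% of all 13682 genes tested were called. For *KIT* the difference restates its fall in HCC4006. Alternatives are given for members only, so how far the *GAB2* call depends on the processing was not examined.

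**Figure D5:**
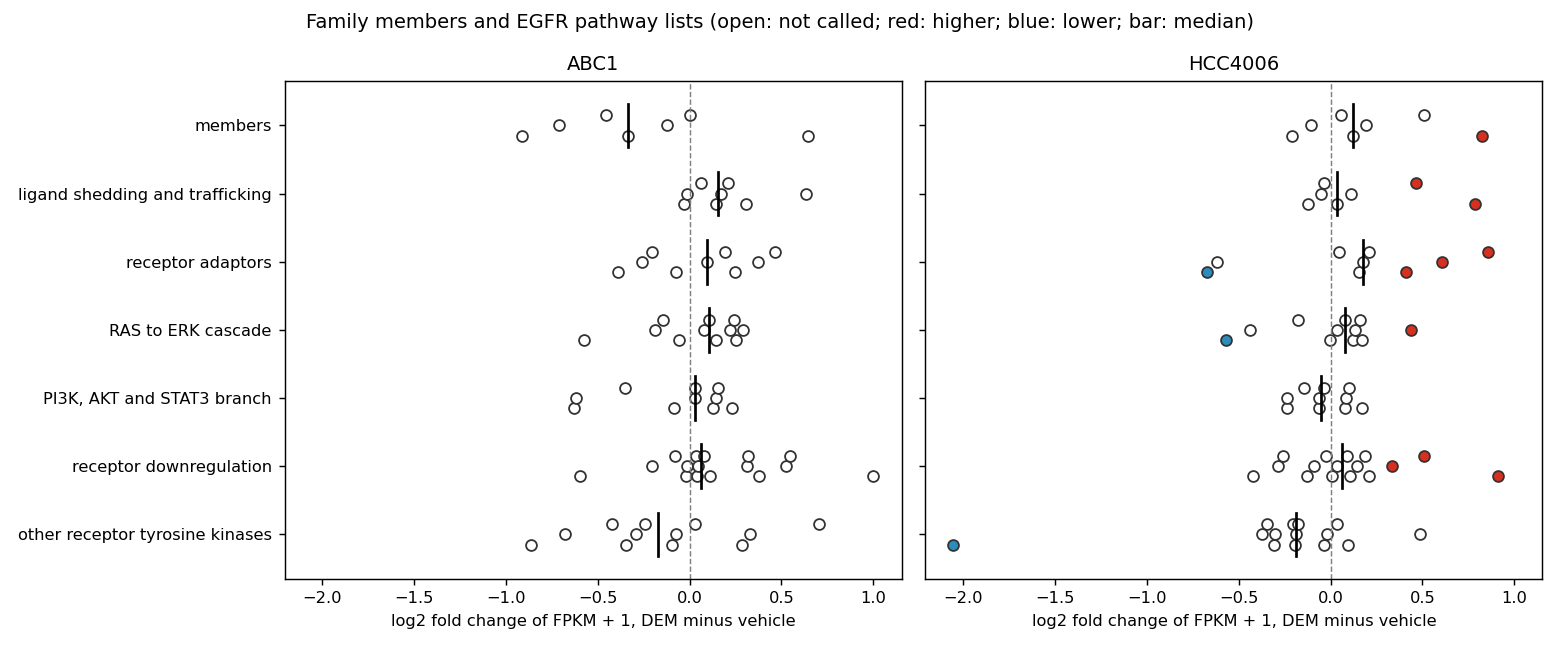
Log2 fold change of FPKM + 1 with DEM against vehicle in ABC1 (left) and HCC4006 (right) for the members and 6 pathway lists, with 1 circle for each gene tested, a bar for the list median, and filled circles where the adjusted p was under 0.05 by limma (red, higher, and blue, lower). All circles are open in ABC1, and in HCC4006 *KIT* has the lowest value at -2.05.

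Between the lines, 22 of the 68 pathway genes tested with vehicle were called by limma as higher in HCC4006 and 31 as lower (77.9%, background 67.7%), and with DEM 19 of 67 as higher and 28 as lower (70.1%, background 63.6%). The largest differences of other receptor tyrosine kinases with vehicle were those of *AXL*, the GAS6 receptor, at 54.0 and 49.4 FPKM in HCC4006 against 0.193 and 0.0313 FPKM in ABC1, and of *FGFR3*, an FGF receptor, with a log2 difference of -3.75. *TIMP3*, an inhibitor of ADAM17, was at 95.2 and 120 FPKM in the ABC1 vehicle libraries and at 0.530 and 0.425 FPKM in those of HCC4006. *AKT1*, a kinase that acts downstream of PI3K, was at 129 and 123 FPKM in HCC4006 against 25.9 and 30.1 FPKM in ABC1. *AXL* and *TIMP3* passed the minimum only through the line where they were high, so they had to differ.

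The genes whose pattern was nearest to a member were found by Euclidean distance in log2(FPKM + 1), centred for each gene over the 8 libraries, among 13682 genes. For *EGFR* they were *LAMB2*, *PISD*, *MAGI3*, *NOTCH2* and *GIGYF2*, at distances of 0.28 to 0.31. For *ERBB2* they were *TRIM32*, *KDM1A*, *KIF20B*, *ZNF445* and *EID2* (0.26 to 0.27), and for *ERBB3* *ZNF701*, *SMARCB1*, *MED25* and *SNX2* (0.22 to 0.26). *TGFA* was nearest to *SH3RF2*, *ETS1*, *F12*, *TMC4* and *MISP* (0.40 to 0.46), *HBEGF* to *PHF10*, *PLD3*, *PRDM2*, *BTG1* and *PCBP2P2* (0.20 to 0.23), and *ERRFI1* to *ZBTB21*, *KCMF1*, *GFPT1*, *FBXO30* and *CLDN15* (0.26 to 0.31). For *NRG4* they were *BBS10*, *EPB41L4A-AS1*, *DGCR6*, ENSG00000257553 and *FUT4* (0.32 to 0.40). The libraries are shared by all genes, so these distances are a description.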

How the data were processed

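RNA-seq of ABC1 and HCC4006 (polyA selected, strand-specific kit, 80-base paired-end reads) were compared by DEM exposure and by line. In the authors' deposited table, each library has FPKM values for 57815 gene identifiers. The study's methods name TopHat and Cufflinks on hg19, whereas the submitters' processing notes list STAR 2.5.3a, Cuffnorm, HTSeq and DESeq2, and which of them made each file is not given in the sources used here. The authors also deposited, for each line, a table with a normalized signal per gene (the base mean, used here for depth only) beside a log2 fold change, its error, a statistic and p-values, none of which were used. Symbols and positions were found for 55534 identifiers in a GRCh37 annotation, which shares its assembly with hg19. Promoters were those of RefSeq on GRCh38.p14.

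DEM was compared with vehicle in each line, HCC4006 with ABC1 under each treatment, and the DEM responses of the lines with each other, by limma 3.58.1 in R 4.3.3 on log2(FPKM + 1), using a mean-variance trend, Benjamini-Hochberg adjustment over all genes tested and a threshold of 0.05. Groups were those of the sample labels, and each comparison was fitted on its own libraries, except the difference between the lines, which used all 8. Genes under a mean of 1 FPKM were left out. FPKM keeps no read totals, so depth is known only through the base means and no counting interval is given. Alternatives were a pseudocount of 0.1, no minimum or one of 0.5 FPKM, scaling by median of ratios or to *GAPDH*, no trend, a model of all 8 libraries, a replicate block and leaving out each library. The comparison steps were tested on simulated data.

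The members, the lists and the rule for named genes were chosen with earlier results of these data known. Named were the members, *AREGB*, the other ERBB genes, called genes of the 6 pathway lists (at most the 4 largest changes of a list), 5 check genes and the 5 nearest patterns of each member averaging 1 FPKM or more. Some genes that this rule takes in are not reported here.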

Additional observations from a re-analysis of the deposited data

Results flagged for a closer look

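*TGFA* values with DEM lay on opposite sides of those with vehicle in the 2 lines, though neither line passed the test (adjusted p = 0.126 in ABC1 and 0.647 in HCC4006 by limma). In ABC1 both DEM libraries (3.91 and 2.75 FPKM) were below both vehicle libraries (6.52 and 5.58 FPKM), while in HCC4006 both were above them, though by little (30.2 and 31.6 against 29.2 and 30.2 FPKM). The difference of the log2 fold changes, HCC4006 minus ABC1, was 0.767 and did not pass the test (adjusted p = 0.154 by limma). It lay between 0.57 and 0.96 when 1 library was left out, with an adjusted p between 0.0718 and 0.373.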

How the results depend on the processing

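Of 414 member values recomputed under the alternatives, 376 kept their direction and their side of the threshold, 13 passed it newly, 14 no longer passed it and 11 turned. The values that turned were small. *HBEGF* in ABC1 came to -0.00077 with median of ratios scaling, -0.14 with *GAPDH* scaling and between -0.11 and 0.12 with 1 library left out, and *ERRFI1* between the DEM libraries came to 0.15 with *GAPDH* scaling. With 1 library left out, *EGFR* lay between -0.00065 and 0.24 with DEM in HCC4006 and between -0.24 and 0.10 between the vehicle libraries, and the difference of the DEM responses of *ERBB3* lay between -0.066 and 0.098. Counts of called genes moved more. In ABC1, 152 genes were called, but 0 with no minimum, 318 with median of ratios scaling, 244 with *GAPDH* scaling, 33 without the trend, 1567 in the model of all 8 libraries and 18 to 69 with 1 library left out. Members called there numbered 1 with median of ratios scaling and 4 in the model of all 8 libraries, against 0. In HCC4006, 2591 genes were called, but 370 with no minimum and 634 to 1028 with 1 library left out, and 2 members were called without the trend and in the model of all 8 libraries, against 1. Between the vehicle libraries 9305 genes were called (5572 to 9005 with 1 left out), and 8 members with no minimum against 5, or 4 to 6 with 1 left out. Between the DEM libraries 8624 genes were called, and with 1 left out 4434 to 8560 genes and 2 to 5 members. The lines' DEM responses differed for 87 genes, but for 20 with a pseudocount of 0.1, 403 with no minimum (1 member, *BTC*, adjusted p = 0.0449 by limma), 19 with *GAPDH* scaling and 4 to 41 with 1 left out. Scaling to *GAPDH* turned the split of higher to lower calls with DEM from 97 and 55 to 80 and 164 in ABC1 and from 1144 and 1447 to 1478 and 1044 in HCC4006, and the all-gene median went in ABC1 from -0.02 to -0.16 and for the difference between the lines from -0.02 to 0.18.

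A fit with the replicate number as a block called 2348 genes and 4 members in ABC1 (*ERBB2*, *TGFA*, *NRG4* and *ERRFI1*, adjusted p between 0.00419 and 0.0316 by limma) and 13 genes in the difference between the lines. Deviations of libraries with the same number correlated by 0.26 in ABC1 and 0.05 in HCC4006, and with 2 pairs in a line the numbers were not shown to pair the libraries. No paired analysis was run between the lines. The cause of these changes was not tested. The low levels of *AREG*, *EREG*, *BTC* and *NRG4* and the duplicate design limit what could be called.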
